A study of Homo sapiens with 6 samples.

Results

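Transcripts of 47 genes of the lysosome were followed in LX-2 cells, a human hepatic stellate cell line, that were exposed to medium from colorectal cancer cells. The genes were taken by symbol from the 60605 rows that carried an Ensembl identifier, in a table of 60780 rows, and each symbol matched 1 row. By role they were 12 proteases (the cathepsins and TPP1), 9 glycosidases, 3 sulfatases, 8 genes of lipid breakdown and cholesterol export, 5 membrane proteins, 5 parts of the proton pump and 5 genes of sorting and regulation. All 47 passed the filter on low counts.

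The medium came from HCT116 cells, a human colorectal carcinoma line, that carried either the empty lentiviral vector (HCT116Vector, giving Vector-CM) or the same vector with FGFBP1, the gene of a secreted protein that carries fibroblast growth factors (HCT116FGFBP1, giving FGFBP1-CM). Both groups received medium conditioned by tumor cells for 24 h, and the 3 libraries of each group were of RNA from whole LX-2 cultures. The comparison is thus between the media of the vector line and the FGFBP1 line, and not of conditioned medium against none. Other differences between these selected lines, or between batches of medium, cannot be told apart from the overexpression. The LX-2 cells themselves were not engineered, and their FGFBP1 count was 0 to 4 in every library. Nothing in the labels says that the replicates were separate cultures, so the p-values measure the spread between these libraries, which may be technical. In such bulk RNA, fewer cells of a type and less RNA per cell cannot be told apart.

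The lysosome is the acidic compartment in which proteins, glycans and lipids are taken apart by hydrolases. Most of these enzymes are tagged with mannose 6-phosphate in the Golgi and carried there by the receptors M6PR and IGF2R, a proton pump in the lysosomal membrane keeps the lumen acid, and the transcription factor TFEB binds sequences with the core CACGTG near many of their genes. In hepatic stellate cells, lysosomal proteases degrade collagen and other matrix that has been taken up, and secreted cathepsins act outside the cell.

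Since TFEB is among the 47 genes, their promoters, its own included, were read for its core. RefSeq promoters (GRCh38.p14, 250 bases before to 50 after each annotated start, 300 in all) were found for 34 of the 47 genes. CACGTG, which reads the same on both strands, was present for 11 of the 34 genes (32.4%), beside 8.77% of all 27305 genes in the promoter table and 12.2% of the 11094 genes in it that were tested here. The longer form TCACGTGA, which contains the core, was present for 7 of the 34 (20.6%), beside 1.18% and 2.22%. The promoters below are shown because they hold the core, carry it in different numbers, and belong to genes whose values lay on opposite sides of the comparison. Each is written 5′ to 3′ on the strand of its gene, with the core or its longer form in capitals. Each ends before the RefSeq start that was used. By the GENCODE gene coordinates, however, the stretches of CTSA, CTSF and ATP6V0D1 lie within the gene, and that of GAA reaches past its start. The other stretches end before the GENCODE start as well.
GAA, chr17:80101485-80101575, plus strand: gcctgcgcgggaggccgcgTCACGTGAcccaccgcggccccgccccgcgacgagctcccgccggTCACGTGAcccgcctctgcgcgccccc
CTSA, chr20:45891273-45891334, plus strand: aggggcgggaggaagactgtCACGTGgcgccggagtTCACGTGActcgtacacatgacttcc
CTSF, chr11:66568632-66568677, minus strand: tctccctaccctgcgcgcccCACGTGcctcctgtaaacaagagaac
LAMP1, chr13:113297027-113297122, plus strand: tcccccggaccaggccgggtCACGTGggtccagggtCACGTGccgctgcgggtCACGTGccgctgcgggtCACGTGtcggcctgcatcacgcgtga
MCOLN1, chr19:7522563-7522623, plus strand: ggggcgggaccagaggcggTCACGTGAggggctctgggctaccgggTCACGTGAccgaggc
IGF2R, chr6:159968988-159969079, plus strand: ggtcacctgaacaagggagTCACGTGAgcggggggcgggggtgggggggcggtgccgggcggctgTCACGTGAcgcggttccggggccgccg
ATP6V0D1, chr16:67481191-67481236, minus strand: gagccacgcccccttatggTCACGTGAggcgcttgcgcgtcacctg
ARSB, chr5:78986093-78986138, minus strand: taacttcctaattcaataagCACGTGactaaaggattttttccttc

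Library totals ran from 14003780 to 18508113 counts, and the 47 genes took 0.722% to 0.783% of them, so that 3 counts corresponded to 0.162 to 0.214 CPM (counts scaled to library size after TMM adjustment). With edgeR's quasi-likelihood test and Benjamini-Hochberg adjustment, 20 of 16707 genes passed an adjusted p of 0.05, 9 higher and 11 lower in FGFBP1-CM. With DESeq2's size factors the split was 24 higher and 14 lower. FGFBP1-CM replicate 1 stood apart from the other 5 libraries. On the first principal component, which held 49.0% of the variance, it lay at 34.2, while its mates lay at 3.69 and 4.97 and the Vector-CM libraries between -15.9 and -11.6. All 12 stellate cell markers had at least 10 counts over the 6 libraries, although DES was at 0.175 and 0.117 CPM and ACTA2 at 4.75 and 4.19 CPM, and VIM, which many other cells also express, made up 2591 and 2160.4 CPM of their sum. They summed to 3204 ± 111 CPM under Vector-CM and to 2660.0 ± 201 CPM under FGFBP1-CM (SD, n = 3). TIMP1 was the 1 marker of these that passed the test, lower in FGFBP1-CM. Of the 10 macrophage markers, 5 (PTPRC, CD14, CSF1R, MARCO and LYZ) had at least 10 counts over the 6 libraries, with CD14 at 2.32 and 2.57 CPM. C1QA, CD163 and TYROBP were at 0 in all libraries. The 10 macrophage markers summed to 4.85 to 5.64 CPM under Vector-CM and 4.65 to 7.47 CPM under FGFBP1-CM. The 10 markers of colorectal epithelium summed to 4.20 to 6.27 CPM and 3.96 to 5.15 CPM, with 5 of the 10 under 10 counts over the 6 libraries. The 12 hepatocyte markers summed to 39.6 to 40.9 CPM under Vector-CM and 17.7 to 27.3 CPM under FGFBP1-CM, and ALB, APOB and FGA passed the test. Most of that sum was SERPINA1, at 29.6 and 20.7 CPM. ALB was at 3.43 and 0.611 CPM, APOB at 3.37 and 0.278 CPM and FGA at 0.933 and 0.0594 CPM. Whether the stellate or hepatocyte markers have a part in the values of the lysosomal genes was not tested.

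The lysosomal genes as a group had log2 fold changes slightly below 0 in FGFBP1-CM, with none past the threshold. Of the 47 genes, 0 passed an adjusted p of 0.05, where 0.120% of all genes tested did, and the lowest adjusted p was 0.0680. At an unadjusted p under 0.05 there were 13 genes lower and 6 higher, together 40.4% of the 47, where 21.7% of all genes tested fell under it (10.7% lower and 11.1% higher). The log2 fold change of FGFBP1-CM over Vector-CM was below 0 for 37 of the 47 (78.7%), beside 49.3% of all genes tested, and its median was -0.09, beside 0.00. No gene of the 47 differed by more than 1.36-fold in either direction. The CPM of the 2 groups did not overlap for 17 genes that were lower and 5 that were higher, together 46.8%, beside 26.0% of all genes tested (13.2% lower and 12.8% higher). Scaled by library size only, 30 of the 47 were below 0, beside 7126 of 16707 genes.

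Part of this rested on single libraries, among them FGFBP1-CM replicate 1. It was above both of its mates for all 6 of the higher genes and below both for 12 of the 13 lower genes. Over all 47 genes it was above both for 14 and below both for 26. For 75.8% of all genes tested it lay outside its mates on either side. Without it, 8 of the 13 lower genes and 2 of the 6 higher genes kept an unadjusted p under 0.05 and no other lysosomal gene gained one, which made 21.3% of the 47, beside 14.6% of all genes then tested (6.91% lower and 7.73% higher). In that fit 0 of the 47 passed an adjusted p of 0.05 (0.421% of all genes did), 38 of the 47 were below 0 (50.4% of all genes), and the median was -0.06. By sign, CTSO and TPP1 passed from below to above 0 and SMPD1, MCOLN1 and M6PR from above to below, all with values near 0, and 4 of the 6 higher genes were no longer under an unadjusted p of 0.05. The dependence was not particular to that library. Without Vector-CM replicate 2, 5 genes were lower and 5 higher (21.3%, beside 16.3% of all genes then tested). Without Vector-CM replicate 3, 6 were lower and 3 higher (19.1%, beside 14.2%).

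**Figure D1:**
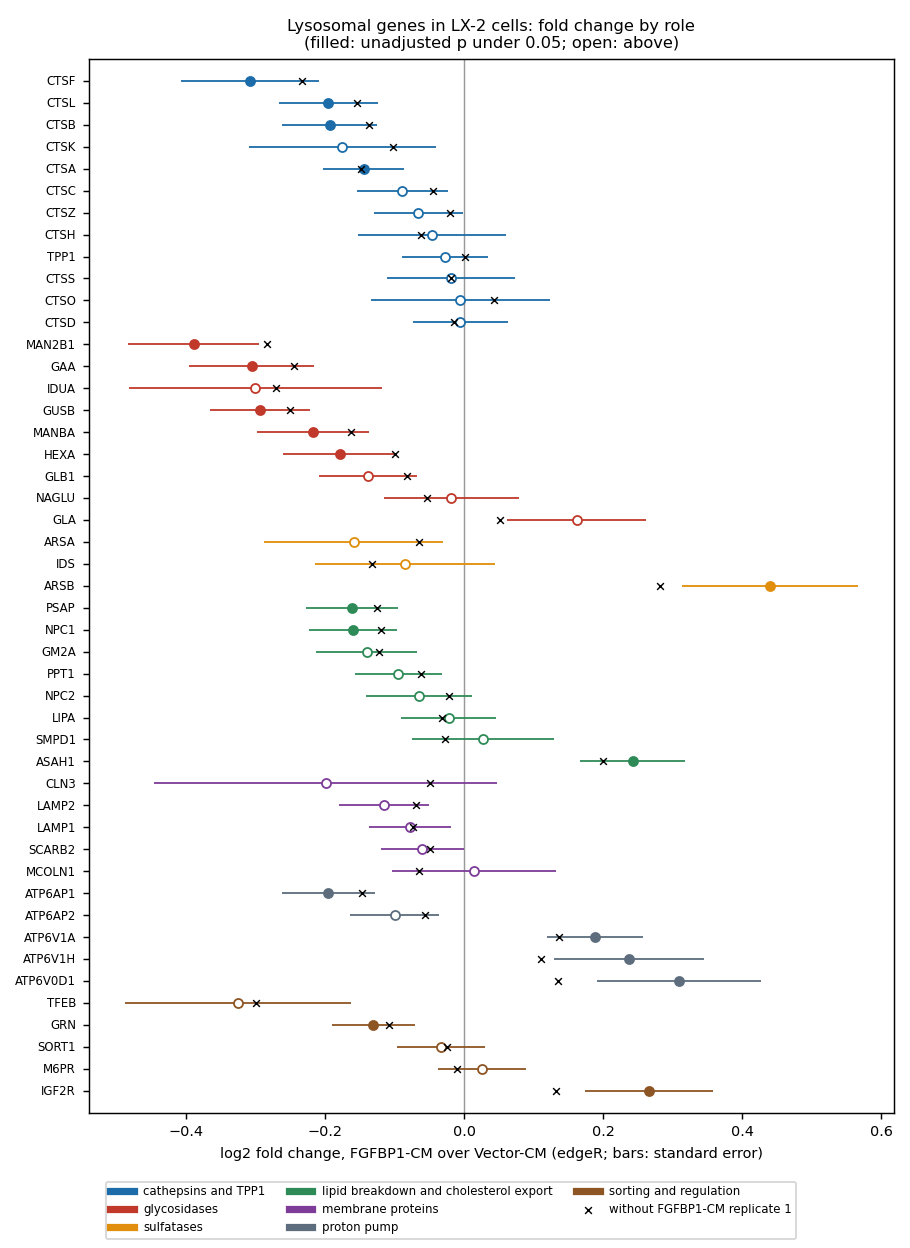
Log2 fold change of FGFBP1-CM over Vector-CM for the 47 lysosomal genes by role (horizontal axis, edgeR; bars are the standard error; filled points have an unadjusted p under 0.05), with crosses for the fit without FGFBP1-CM replicate 1. All 12 proteases and 8 of the 9 glycosidases lie below 0 (8 of 12 and 7 of 9 when scaled by library size only), and 3 of the 5 proton pump genes lie above it.

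**Figure D2:**
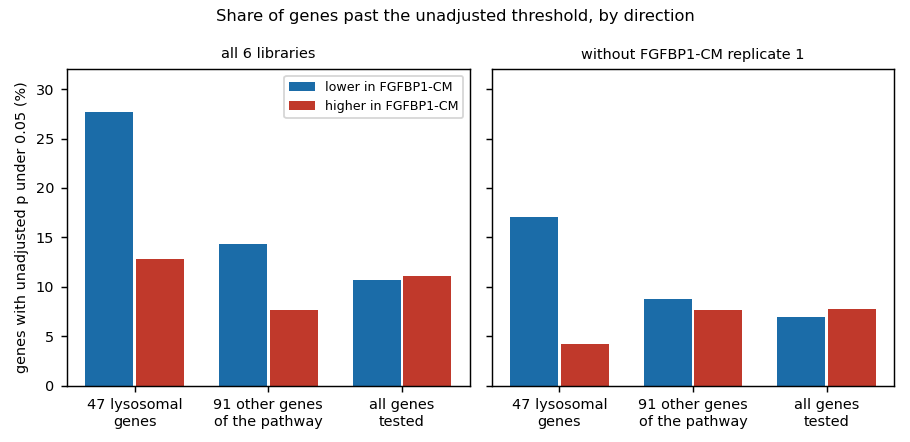
Share of genes with an unadjusted p under 0.05 in each direction (vertical axis, percent) among the 47 lysosomal genes, the 91 other pathway genes tested and all genes tested, with all libraries and without FGFBP1-CM replicate 1. Among the lysosomal genes the lower share was 27.7% and the higher share 12.8% with all libraries.

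In the account by role that follows, values are given as CPM in replicates 1, 2 and 3 of each group, and every fold change is on the log2 scale with its standard error. The adjusted p-values are from edgeR. Levels are compared between genes only in FPKM, the fragments per kilobase scaled to depth that were deposited beside the counts, as the mean ± SD over the 6 libraries.

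The cathepsins and TPP1 were all below 0, with a median log2 fold change of -0.08, but scaled by library size only 8 of the 12 were. The unadjusted p was under 0.05 for 4 of them, all lower, where 10.7% of all genes tested were lower at that level. CTSL, a cysteine protease that degrades a broad range of proteins, had the highest level of them (165 ± 12.6 FPKM, SD). It measured 998, 1122 and 1120.2 CPM with Vector-CM and 891, 993 and 945 CPM with FGFBP1-CM. The groups did not overlap, although FGFBP1-CM replicate 2 and Vector-CM replicate 1 were nearly level, and the fold change was -0.20 ± 0.072 (adjusted p = 0.148). CTSB, which has endopeptidase activity, measured 303, 331 and 318 CPM against 257, 287 and 289 CPM. Every FGFBP1-CM library was below every Vector-CM library, with a fold change of -0.19 ± 0.068 (adjusted p = 0.136). CTSF, another cysteine protease, showed the most negative value of the group, from 24.3, 24.0 and 21.6 CPM to 17.0, 20.8 and 18.8 CPM. The groups did not overlap here either (-0.31 ± 0.10, adjusted p = 0.114), and the value was -0.23 without FGFBP1-CM replicate 1. CTSA is a carboxypeptidase that also protects β-galactosidase and neuraminidase within a complex. It measured 194, 202 and 198 CPM against 181, 181 and 176 CPM, a narrow spread in both groups (-0.14 ± 0.059, adjusted p = 0.178), and it was the 1 lower gene of the 13 for which FGFBP1-CM replicate 1 was not the lowest library. Its exons share 1668 bases with other genes, among them NEURL2 and PLTP on the opposite strand, and reads there cannot be assigned without strand.

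CTSD, the main aspartic protease of lysosomes, did not follow the other abundant cathepsins. It measured 53.8, 56.6 and 54.1 CPM with Vector-CM and 55.5, 51.8 and 56.4 CPM with FGFBP1-CM, with full overlap and a fold change of -0.01 ± 0.068 (adjusted p = 0.974) that became 0.06 after correction for GC content and length. CTSK, a collagenase best known from osteoclasts, was scarce, at 8.49, 7.16 and 8.76 CPM against 6.54, 7.47 and 7.71 CPM. The groups overlapped (-0.18 ± 0.13, adjusted p = 0.473). The other 6 genes here, CTSC, CTSH, CTSO, CTSS, CTSZ and TPP1, had fold changes between -0.09 and -0.01, and of these CTSZ alone did not overlap between groups. TPP1, a tripeptidyl peptidase, was second in level after CTSL, with 30.8 ± 0.746 FPKM, which did not differ from CTSB (28.1 ± 2.08 FPKM) beyond their spread, and CTSO was the lowest, with 0.845 ± 0.0338 FPKM.

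**Figure D3:**
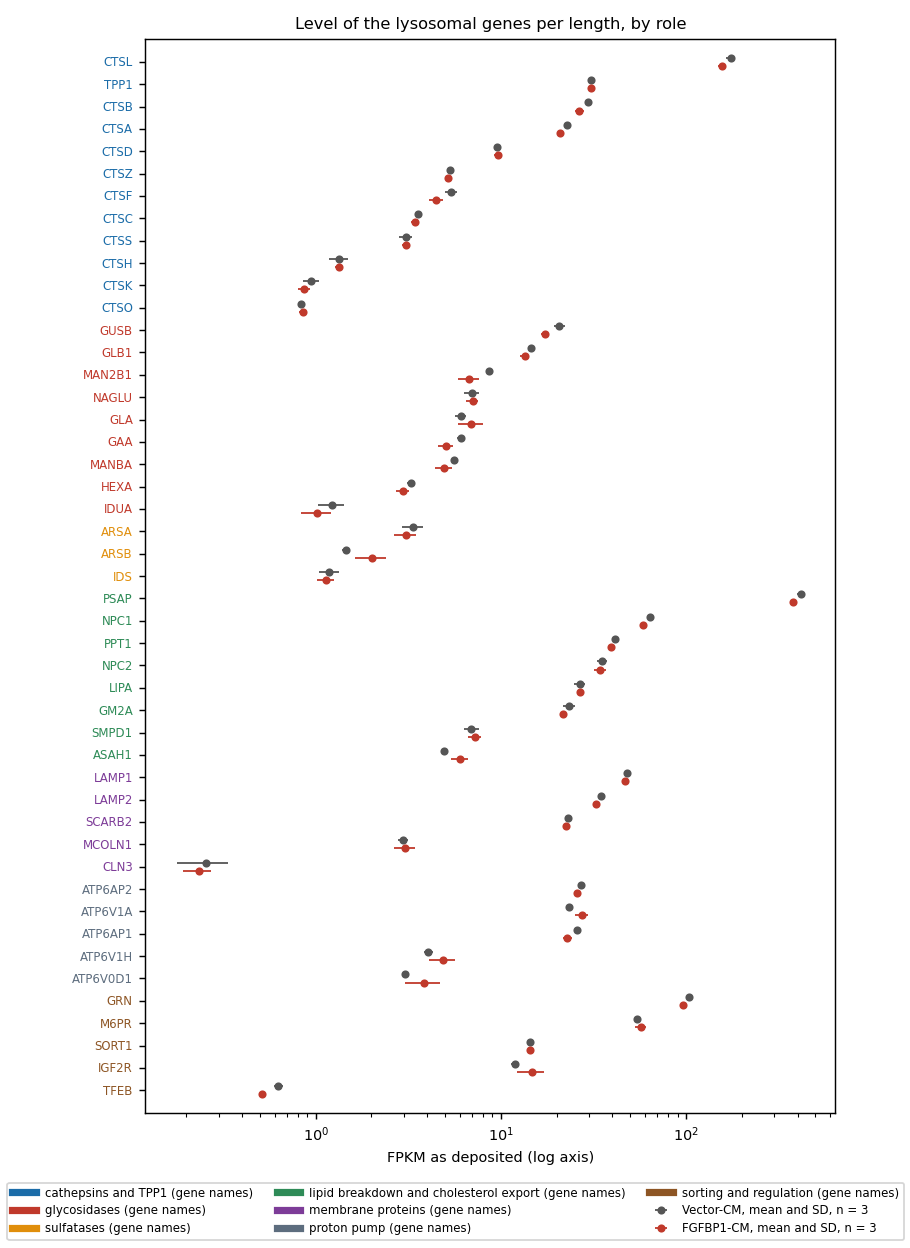
Level of the 47 genes per length, as deposited FPKM on a log axis, with the mean and SD of the 3 libraries of each group, ordered within each role (colors of the gene names). PSAP is the highest, at 397 FPKM over all libraries, and CLN3 the lowest, at 0.245 FPKM.

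Among the glycosidases, which remove sugars from glycoproteins, glycolipids, glycogen and glycosaminoglycans, 8 of 9 were below 0 (7 of 9 when scaled by library size only), with a median of -0.22. An unadjusted p under 0.05 was found for 5, all lower, where 10.7% of all genes tested were lower at that level. MAN2B1, the lysosomal α-mannosidase (chr19:12646511-12666742 in GENCODE 29, GRCh38, minus strand), measured 46.3, 47.5 and 47.2 CPM with Vector-CM and 30.8, 41.1 and 36.0 CPM with FGFBP1-CM. The Vector-CM libraries were tightly grouped and the FGFBP1-CM libraries lay well below them but apart from each other, giving -0.39 ± 0.094, a 1.31-fold lower level (adjusted p = 0.0680). This was the most negative value among the 47 genes, and it was -0.28 without FGFBP1-CM replicate 1. GUSB, the β-glucuronidase of glycosaminoglycan breakdown (chr7:65960684-65982314, minus strand), measured 85.4, 83.4 and 76.7 CPM against 62.9, 71.2 and 66.2 CPM. The groups were separate, with a fold change of -0.29 ± 0.072 (adjusted p = 0.0680) that was -0.25 without FGFBP1-CM replicate 1. GUSB has pseudogene copies, among which GUSBP1 took 1276 counts over the 6 libraries beside 7230 for GUSB, so that reads may have been split between them. It had the highest level of the glycosidases, with 19.0 ± 2.13 FPKM. With DESeq2 both MAN2B1 and GUSB passed the threshold, with an adjusted p of 0.0192 for MAN2B1 (0.00200 to 0.250 over the 17 alternatives) and 0.0261 for GUSB (0.0179 to 0.243). DESeq2 was run without the filter on low counts, and 573 of 38002 genes passed there, beside 20 of 16707 in the fit reported. GAA, the acid α-glucosidase that degrades glycogen (chr17:80101556-80119879, plus strand), measured 33.0, 33.3 and 30.9 CPM against 24.2, 29.4 and 25.2 CPM, again without overlap (-0.31 ± 0.090, adjusted p = 0.0955). Its promoter, printed above, holds the longer motif at 2 places. MANBA, the β-mannosidase, measured 64.6, 68.4 and 67.5 CPM against 53.5, 54.2 and 64.8 CPM. FGFBP1-CM replicate 3 reached into the Vector-CM range, and the fold change was -0.22 ± 0.081 (adjusted p = 0.151). HEXA, the α subunit of β-hexosaminidase A, measured 50.2, 55.7 and 52.2 CPM against 41.7, 47.7 and 50.4 CPM and overlapped in the same replicate (-0.18 ± 0.082, adjusted p = 0.226).

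The remaining glycosidases did not reach an unadjusted p of 0.05. GLB1, the β-galactosidase, was at -0.14 without overlap, IDUA, which removes iduronic acid, at -0.30 with overlap and few counts, and NAGLU, which acts on heparan sulfate, at -0.02. GLA, the α-galactosidase, was the 1 glycosidase above 0, at 0.16, and 0.05 without FGFBP1-CM replicate 1.

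The 3 sulfatases, which remove sulfate from glycosaminoglycans and sulfatide, had a median of -0.08 and did not move together. ARSB, which acts on dermatan and chondroitin sulfate (chr5:78777209-78986087, minus strand), measured 12.6, 13.8 and 12.9 CPM with Vector-CM and 21.4, 16.0 and 15.8 CPM with FGFBP1-CM. All FGFBP1-CM libraries were above all Vector-CM libraries, replicate 1 the most. The fold change of 0.44 ± 0.13 (adjusted p = 0.0912) was the largest upward value among the 47 genes, and it was 0.28 without that replicate. ARSA, which acts on sulfatide and had the highest level of the 3 (3.22 ± 0.410 FPKM), measured 15.0, 17.4 and 13.6 CPM against 12.0, 16.0 and 13.2 CPM. The groups overlapped (-0.16 ± 0.13, adjusted p = 0.502), as did those of IDS, the iduronate sulfatase (-0.08, adjusted p = 0.743).

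Of the 8 genes of lipid breakdown and cholesterol export, 6 were below 0 (5 when scaled by library size only) and the median was -0.08. PSAP, the precursor of the saposins that help hydrolases reach sphingolipids, was by level the first of all 47 genes (397 ± 23.1 FPKM). It measured 1284, 1401 and 1343 CPM with Vector-CM and 1145, 1241 and 1215 CPM with FGFBP1-CM. The groups were separate, with a small fold change (-0.16 ± 0.067, adjusted p = 0.184). NPC1, the membrane protein that exports cholesterol, measured 622, 640.0 and 621 CPM against 532, 584 and 569 CPM. It too was lower in every FGFBP1-CM library (-0.16 ± 0.063, adjusted p = 0.170), and its exons share 604 bases with RMC1 on the opposite strand. ASAH1, the acid ceramidase that splits ceramide, went the other way, from 79.4, 76.6 and 75.7 CPM to 96.9, 81.6 and 95.5 CPM. The groups did not overlap (0.24 ± 0.075, adjusted p = 0.104), and with replicates 1 and 3 both high the value without replicate 1 was 0.20. After correction for GC content and length it was 0.17. GM2A, the cofactor for ganglioside breakdown, PPT1, a thioesterase, NPC2, the soluble partner of NPC1, LIPA, the acid lipase, and SMPD1, the acid sphingomyelinase, had fold changes between -0.14 and 0.03 and overlapped between groups.

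PSAP, CTSL and NPC1 together made up 39.4 ± 0.552% of the summed CPM of the 47 genes in Vector-CM and 37.5 ± 1.00% in FGFBP1-CM (SD, n = 3). The sum of all 47 was 7739 ± 230.1 CPM and 7211 ± 146 CPM, with ranges of 7485 to 7934 and 7053 to 7341 CPM that did not overlap, a ratio of 0.932. The other 44 genes summed to 4688 ± 97.2 and 4506 ± 19.4 CPM, a ratio of 0.961.

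The membrane proteins held no gene with an unadjusted p under 0.05, and 4 of the 5 were below 0. LAMP1, a glycosylated protein that lines the lysosomal membrane, had the highest level of them (47.3 ± 0.929 FPKM). It measured 273, 282 and 284 CPM with Vector-CM and 264, 267 and 264 CPM with FGFBP1-CM. Although the groups did not overlap, they were close (-0.08 ± 0.058, adjusted p = 0.464). LAMP2, its relative with a role in chaperone-mediated autophagy, measured 316, 333 and 339.5 CPM against 286, 315 and 312 CPM. Here the groups were separate by a narrow margin, with a fold change of -0.12 ± 0.065 (adjusted p = 0.318). SCARB2, the receptor that carries glucocerebrosidase to the lysosome, also did not overlap, at -0.06. MCOLN1, a calcium channel of the lysosomal membrane, was at 0.01, and CLN3, whose loss causes juvenile neuronal ceroid lipofuscinosis, was at -0.20 with a standard error of 0.25 at the lowest level of the 47 genes.

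The proton pump was the 1 role with a median above 0, at 0.19, and its parts went in both directions. The subunits of the pump itself were above 0. ATP6V1A, the catalytic subunit that binds ATP, measured 116, 123 and 126 CPM with Vector-CM and 149, 129.7 and 137 CPM with FGFBP1-CM. The groups did not overlap (0.19 ± 0.069, adjusted p = 0.146), and the value was 0.12 after correction for GC content and length. ATP6V0D1, which joins the membrane sector to the rotor, measured 26.2, 24.7 and 24.7 CPM against 38.1, 28.2 and 27.0 CPM. Replicate 1 stood far above its mates, and the fold change of 0.31 ± 0.12 (adjusted p = 0.159) was 0.13 without it. ATP6V1H, a regulatory subunit of the cytoplasmic sector, measured 20.3, 22.3 and 20.3 CPM against 28.8, 23.1 and 22.1 CPM. It overlapped between groups and rested on the same library (0.24 ± 0.11, adjusted p = 0.220, and 0.11 without replicate 1).

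The accessory proteins of the pump were below 0. ATP6AP1, needed for assembly of the pump, measured 144, 151 and 148 CPM against 121, 138 and 128 CPM, without overlap (-0.20 ± 0.066, adjusted p = 0.126). It was -0.15 without FGFBP1-CM replicate 1. ATP6AP2, also known as the prorenin receptor, had the highest level of the 5 (26.5 ± 1.03 FPKM). It measured 254, 262 and 272 CPM against 231, 249 and 255 CPM and overlapped between groups (-0.10 ± 0.064, adjusted p = 0.387). The 11 further subunits of the pump that were examined beside these had a median of 0.09, and 9 of the 11 were above 0. Of them ATP6V1C1, a stalk subunit, was at 0.25 (adjusted p = 0.102) and ATP6V0E1, a small membrane subunit, at 0.16 (adjusted p = 0.266). ATP6V1C1 was the 1 of the 11 with an unadjusted p under 0.05.

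Among the genes of sorting and regulation, both mannose 6-phosphate receptors were measured well, and they gave different values. IGF2R, the large receptor that also takes up insulin-like growth factor II (chr6:159969099-160113507, plus strand), measured 284, 273 and 264 CPM with Vector-CM and 388, 301 and 297 CPM with FGFBP1-CM. The groups did not overlap, but replicate 1 was far above its mates, and the fold change of 0.27 ± 0.092 (adjusted p = 0.130) was 0.13 without it. M6PR, the small receptor, measured 193, 203 and 199 CPM against 212, 192 and 201 CPM, which overlapped fully (0.03 ± 0.063, adjusted p = 0.852). Whether the receptors differed in their response was not tested. M6PR shares 1105 exon bases with PHC1 on the opposite strand.

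GRN, whose product progranulin is cut into granulins in the lysosome, had the highest level of this role (99.8 ± 4.01 FPKM). It measured 368, 374 and 364 CPM against 328, 345 and 338 CPM. Each FGFBP1-CM library was lower (-0.13 ± 0.059, adjusted p = 0.221), and the value was -0.08 after correction for GC content and length. SORT1, the sorting receptor that binds progranulin and prosaposin, was at -0.03 with overlap. TFEB, the transcription factor whose targets include many of these genes, was scarce, at 4.02, 4.56 and 4.31 CPM against 3.32, 3.58 and 3.36 CPM. The groups did not overlap, with a fold change of -0.33 ± 0.16 (adjusted p = 0.264), and its unadjusted p was not under 0.05 in any of the 17 alternative fits. TFEB is controlled largely by its place in the cell, which these data do not measure.

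**Figure D4:**
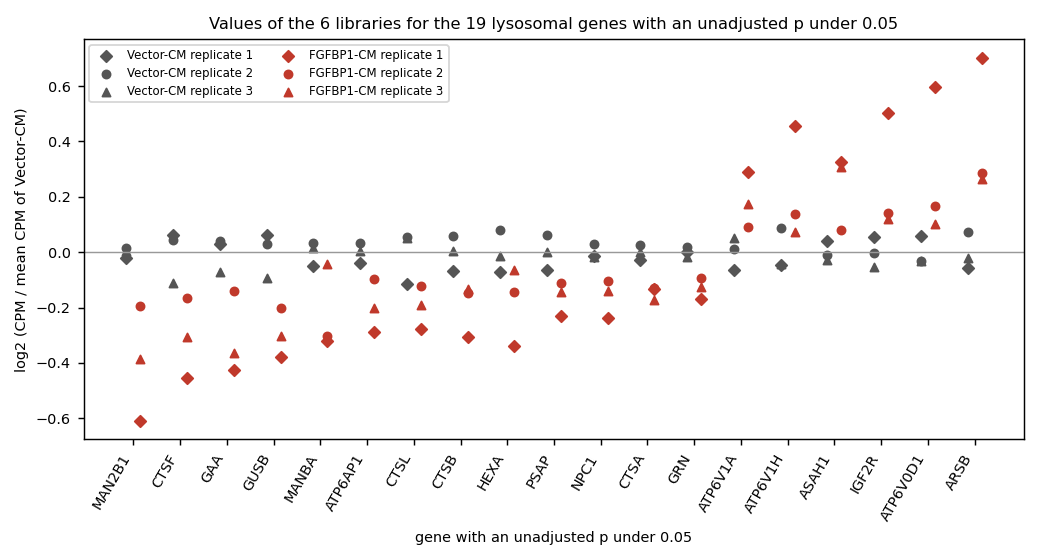
Values of each library for the 19 genes with an unadjusted p under 0.05, as log2 of the CPM over the mean CPM of Vector-CM (vertical axis). FGFBP1-CM replicate 1 (red diamonds) is the lowest library for 12 of the 13 lower genes and the highest for all 6 higher genes.

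The genes that hold the core motif did not lie on 1 side. Of the 11 with it, 3 were lower (CTSA, CTSF and GAA) and 3 higher (ARSB, ATP6V0D1 and IGF2R) at an unadjusted p under 0.05, and their median was -0.01. Of the 23 with a promoter and no core, 6 were lower and 0 higher, with a median of -0.09. Over all genes tested, 155 of the 1358 with the core were lower and 185 higher, and 1073 of the 9732 without it were lower and 1210 higher, with a median of 0.01 in both. The difference between genes with and without the core was not tested. IGF2R holds the longer form at 3 places, of which the printed stretch shows 2. CTSF holds the core at 2 places, of which 1 is printed, and LAMP1 holds 6 cores, of which 4 are printed. A match describes these letters only, and nothing was measured of TFEB at these promoters.

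The 47 genes were richer in G and C than the genes at large, with a median of 50.7% beside 47.7%. The 13 lower genes had a median of 54.7% and the 6 higher genes 48.0%. With a correction for GC content and length in each library, 0 of the 47 passed an adjusted p of 0.05 (0.646% of all genes did), 14 genes were lower and 3 higher at an unadjusted p under 0.05 (11.8% and 9.43% of all genes tested), and the median was -0.11. Of the 13 lower genes 10 were among these, and of the 6 higher genes 3, namely ARSB, IGF2R and ATP6V0D1. The exons of 19 of the 47 genes share bases with another gene in GENCODE 29, 7 of the 19 with an unadjusted p under 0.05 among them.

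A further 95 genes of the same pathway, of which 91 were tested, were examined in 7 lists. None passed the threshold, with a lowest adjusted p of 0.0568. At an unadjusted p under 0.05, 13 were lower and 7 higher (14.3% and 7.69%), together 22.0%, which is near the 21.7% of all genes tested (10.7% lower and 11.1% higher), and the median was 0.02. The counts by list that follow are therefore a description only. This split turned with the scaling, to 6 lower and 13 higher by library size only. TFEC, CSTA, CST6 and SORL1 were below the filter, with at most 7 counts in a library.

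Among the 20 other hydrolases, 4 were lower and 1 higher, and the median was -0.03. CTSV, a close relative of CTSL, was at -0.32 ± 0.080 (adjusted p = 0.0721), and NEU1, the neuraminidase that CTSA protects, at 0.21 ± 0.073 (adjusted p = 0.127). Among the 15 membrane proteins and transporters, 2 were lower and 1 higher. ABCA2, a lipid transporter, was at -0.46 ± 0.095 with the lowest adjusted p of all these genes (0.0568), and SLC38A9, the arginine sensor of the lysosomal surface, at 0.30 ± 0.078 (adjusted p = 0.0780).

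The 16 tested genes of mannose 6-phosphate tagging and coat or retromer sorting included 3 that were higher and 2 that were lower. SNX2, a sorting nexin of the retromer pathway, was at 0.29 ± 0.071 (adjusted p = 0.0703), and AP3B1, a subunit of an adaptor that carries membrane proteins to lysosomes, at 0.22 ± 0.075 (adjusted p = 0.122). Of the 8 genes of tethering and positioning, 6 were above 0. VPS18, a core part of the complexes that tether lysosomes, measured 18.5, 19.5 and 15.8 CPM with Vector-CM and 32.3, 23.2 and 21.8 CPM with FGFBP1-CM. Its fold change of 0.53 ± 0.14 (adjusted p = 0.0793) was 0.33 without FGFBP1-CM replicate 1. VPS39, which joins the same kind of complex, was at 0.15 ± 0.073 (adjusted p = 0.250).

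Among the 19 tested genes of TFEB's relatives, mTORC1 docking and autophagy, 5 were lower and 0 higher. ULK1, the kinase that starts autophagy, was at -0.32 ± 0.089 (adjusted p = 0.0870), and GABARAPL1, a protein of the autophagosome membrane, at -0.20 ± 0.074 (adjusted p = 0.151). The cathepsin inhibitors CST3 and CSTB were at 0.08 and -0.04, with overlap between groups.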

How the data were processed

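RNA was measured by sequencing in 3 Vector-CM and 3 FGFBP1-CM libraries, grouped by the sample titles. The authors aligned reads with HISAT2 2.0.5 and counted them with featureCounts 1.5.0-p3, and they deposited whole-number counts and FPKM per gene. The notes name genome build hg18, while the annotation release and strandedness are not given in the sources used here, and the methods name poly(A) selection in 1 place and depletion of ribosomal RNA in another.

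Counts were tested with edgeR 4.0.16 in R 4.3.3 (filterByExpr, TMM, quasi-likelihood F-test, Benjamini-Hochberg over 16707 genes, threshold 0.05), and the standard error was the fold change over the square root of F. The deposited FPKM served for levels between genes and for limma 3.58.1 on log2 values with a pseudocount of 1 or 0.1. DESeq2 1.42.0 was an alternative. A correction for GC content and length used a loess offset with a span of 0.3. Coordinates are those of GENCODE 29 by Ensembl identifier and need not be those of the build counted. A promoter motif was sought on both strands. Simulated data were used to test the main edgeR fit, DESeq2, and limma at a pseudocount of 1. The edgeR fits with DESeq2's size factors, with the replicate block and with the GC and length correction were tested in the same way. The other alternatives were not.

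The members and lists were chosen with earlier results of these data known. Values by library are given for the 20 genes with the lowest unadjusted p, the highest FPKM in each role, and LAMP1, LAMP2, CTSB, CTSD, CTSK, CTSL, TFEB, GRN, M6PR and IGF2R. From the 7 further lists the pair with the lowest unadjusted p was named, and VPS18 was given by library after its values were seen. Replicates were distinct libraries.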

Additional observations from a re-analysis of the deposited data

How the results depend on the processing

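Over 17 alternatives, 33 of the 47 genes kept the sign of their log2 fold change in every one. The other 14 changed sign in at least 1, among them ARSA (-0.16 in the fit reported) and CLN3 (-0.20). The causes of the shifts below were not tested.

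The count of all genes past the threshold (20) was 38 with DESeq2's size factors, 1382 without a filter on low counts, 11 with a mean of at least 1 CPM, 573 with DESeq2, 1 with limma at either pseudocount, 108 after the GC and length correction, 932 at an adjusted p under 0.1, and 2194 at an unadjusted p under 0.05 and over 1.2-fold. It was 4 to 883 when a library was left out (4 without Vector-CM replicate 2 or 3, 6 without Vector-CM replicate 1, 72, 883 and 402 without FGFBP1-CM replicates 1, 2 and 3). The lysosomal genes past the threshold (0) were 6 without a filter (GUSB, MAN2B1, ARSB, ASAH1, ATP6V0D1 and IGF2R), 2 with DESeq2, 4 at an adjusted p under 0.1, 7 by the rule of over 1.2-fold, and 0 to 4 with a library left out, the 4 (GAA, GUSB, MAN2B1 and ASAH1) without FGFBP1-CM replicate 2. Over all genes tested, 1382 of 38002 passed without a filter and 573 of 38002 with DESeq2. At an adjusted p under 0.1 it was 932 of 16707, and by the rule of over 1.2-fold 2194 of 16707. Without FGFBP1-CM replicate 2 it was 883 of 17133. The lysosomal genes with an unadjusted p under 0.05 (19) were 12 (25.5%, beside 18.6% of all genes tested) with limma at a pseudocount of 0.1, 8 of them lower. With a library left out they were 9 to 20 (19.1% to 42.6%, beside 14.2% to 24.2%), 5 to 13 lower and 2 to 7 higher. There were 10 without Vector-CM replicate 2 (21.3%, beside 16.3%) and 9 without Vector-CM replicate 3 (19.1%, beside 14.2%). The higher ones were 3 (6.38%) after the GC and length correction, with or without the replicate block (beside 8.54% and 9.43% of all genes tested). The median fold change was -0.043 with limma at a pseudocount of 1. A correction for GC content and length without FGFBP1-CM replicate 1 was added after the data were seen. It left 8 genes with an unadjusted p under 0.05 (17.0%, beside 13.8% of all genes tested), 6 lower and 2 higher, with 157 of all genes past the threshold.

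Of the further pathway genes, the number past the threshold (0) was 7 without a filter, 5 with DESeq2, 2 after the GC and length correction and 0 to 7 with a library left out. Over all genes tested it was 1382 of 38002 without a filter, 573 of 38002 with DESeq2 and 108 of 16707 after the correction. The number of pathway genes with an unadjusted p under 0.05 (20) was 11 to 25 with a library left out (8 with the GC and length correction as well), 13 without Vector-CM replicate 1 and 11 without Vector-CM replicate 3. Beside 14.2% to 24.2% of all genes tested, the 11 to 25 were 12.1% to 27.5% of the tested pathway genes. Their median was 0.058 by library size only, 0.056 with limma at a pseudocount of 0.1, and 0.00051 to 0.042 with a library left out (-0.019 with the correction as well). The number past the threshold was 3 without FGFBP1-CM replicate 1 with that correction.

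The labels do not say whether replicate numbers pair the libraries, and the fit reported used no pairing. The correlations of same-numbered deviations were -0.116, -0.0186 and 0.144 over 15109 genes. With 3 libraries in each group, these values cannot settle whether the libraries were paired. With the replicate block, 90 genes passed the threshold, 0 of the 47 lysosomal genes and 1 pathway gene, and with the block and the GC and length correction 175 and 1 did, over all genes and in the pathway.

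Signs changed as follows. By library size only, the log2 fold change was 0.029 for CTSD, 0.028 for CTSO, 0.015 for CTSS, 0.0058 for TPP1, 0.015 for NAGLU, 0.012 for LIPA and 0.00077 for SORT1. Without a filter it was 0.0071 for CTSD and 0.0064 for CTSO. With limma at a pseudocount of 1 and of 0.1, it was 0.024 and 0.026 for CTSD, 0.014 and 0.027 for CTSO, 0.010 and 0.014 for CTSS, 0.0050 and 0.0051 for TPP1, 0.013 and 0.014 for NAGLU, 0.012 and 0.013 for LIPA, and 0.00044 and 0.00049 for SORT1. After the GC and length correction without and with the replicate block, it was 0.063 and 0.062 for CTSD, 0.051 and 0.051 for NAGLU, and -0.0019 and -0.0023 for M6PR. With a library left out, the ranges were -0.029 to 0.030 for CTSD (0.059 with the GC and length correction as well), -0.15 to 0.040 for CTSH, -0.049 to 0.043 for CTSO, -0.051 to 0.044 for CTSS, -0.096 to -0.021 for CTSZ (0.00059), -0.067 to 0.0010 for TPP1 (0.0075), -0.077 to 0.040 for NAGLU (0.026), -0.28 to -0.064 for ARSA (0.017), -0.038 to 0.099 for SMPD1, -0.077 to 0.028 for LIPA, -0.35 to 0.087 for CLN3, -0.065 to 0.11 for MCOLN1 and -0.010 to 0.060 for M6PR (-0.022).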
